A study of Apostichopus japonicus with 9 samples.

Results

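The set described here holds the 71 microRNA (miRNA) names that the authors listed in both of their heat tables with a read count of 0 at 6 h and 0 at 48 h, out of 409 different names listed in the series and 156 that stood in both tables. The members were chosen by their read counts under heat, so their difference from the control is given as a description and carries no test. Names from a list of families, such as let-7, miR-84 or miR-133, were left out by the same rule, which removed 5 names that also had 0 at both times. Small RNA came from intestines of Apostichopus japonicus, a sea cucumber and thus an echinoderm, in animals of 100 to 120 g. The control group was kept under normal conditions, and the heat groups were held at 26 °C for 6 h or 48 h. No strain, sex, age or control temperature was given in the sources used here. Each of the 3 groups had 3 libraries, each made from 1 animal per the labels' protocols, and 1 control group served both heat times. The labelled tissue was not checked against markers, as no marker list of intestinal miRNAs was at hand for this species.

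A miRNA is cut from a hairpin precursor, which can give a mature RNA from its 5′ arm (5p) and one from its 3′ arm (3p). One arm usually accumulates and pairs through its seed, the bases near its 5′ end, with messenger RNAs that it represses, while the other arm is mostly degraded. The deposited names are mainly those of miRNAs known from other animals, so a name gives the known miRNA that the reads were matched to. It does not show that the sea cucumber carries the gene. The mature sequences were not used here.

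For each group the authors gave a pooled read count over the 3 libraries and a mean level in RPM (a name's reads divided by the M reads of its library, M for mega). The pooled values carry no SD. A count divided by the summed RPM returns the total of a library when all reads came from that library. The control libraries recovered in this way had 91.6, 109.1 and 144.9 M reads and are called by these depths, since the columns do not say which animal each belongs to. The heat libraries had 54.4 to 96.9 M reads at 6 h and 57.2 to 113 M reads at 48 h. Over 364 group values from 1 library the smallest level was 20.01 RPM, so a listed 0 was read as less than about 20 RPM in each library, a level that corresponds to 1088 to 2267 reads in the heat libraries. The name of the set should be read in that sense: these miRNAs were listed without reads under heat, which is a level under this limit and not an absence.

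Of the 71 members, 67 had all of their control reads in 1 control library. These 67 names stood above 20 RPM in 1 of the 9 libraries of the study, while the other 2 control libraries, like the 6 heat libraries, were under the limit. In bulk tissue, fewer cells of a type and less RNA per cell cannot be told apart. The remaining 4 names, miR-2788-3p, miR-2472, miR-6853-5p and miR-589-5p, had reads in 2 or more control libraries. In the authors' deposited tables all 71 were listed as lower at both times with q-values of at most 1.64e-206 at 6 h and 4.05e-208 at 48 h. Those q-values compare pooled reads and measure counting error, not the spread between animals. The same call was made for 29.5% of the 403 miRNAs tested at 6 h and 26.7% of the 415 tested at 48 h, and a count of 0 was listed for 24.6% and 23.1%. The rule used these contrasts, so nothing is read from the members' count.

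**Figure D1:**
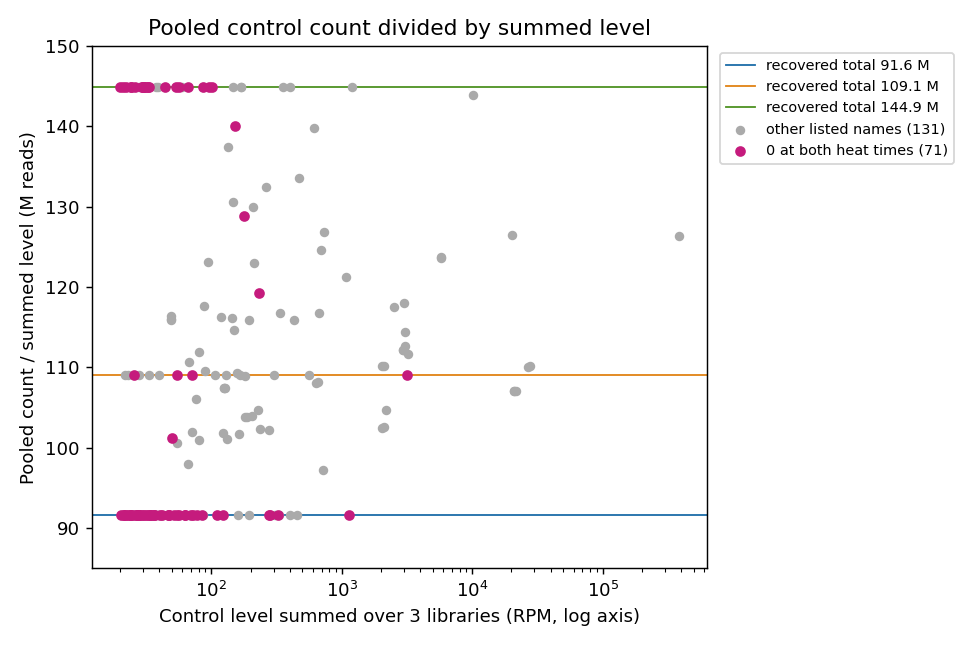
Pooled control count divided by the level summed over the 3 control libraries (M reads, vertical axis) against that summed level (RPM, log axis) for all listed names with control reads, with the 71 names at 0 under heat in colour and 131 others in grey. Points on a horizontal line come from the 1 library with that total: 67 of the 71 lie on the lines at 91.6, 109.1 and 144.9 M reads, and 4 lie between them.

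The members with reads in more than 1 control library are given first. miR-2788-3p, a name given in insects, had 27589 control reads and a control mean of 77.1 RPM, and 0 reads at 6 h and at 48 h. If its reads came from a pair of libraries, the split was 111 RPM in the 91.6 M library with 120.03 RPM in the 144.9 M library, or 166 RPM in the 109.1 M library with 65.7 RPM in the 144.9 M library. All 3 libraries could also share them. In every such division the 144.9 M library held at least 65.7 RPM, above the 20 RPM limit, and the library with the most held between 39.1% and 71.6% of the summed level. Without that library the others averaged at most 70.5 RPM. The control mean was at least 3.86-fold the 20 RPM that the heat libraries could have reached.

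miR-2472, a name given in cattle, had 22960 control reads and a mean of 59.4 RPM, and 0 reads at both heat times. The 144.9 M library held between 98.3 and 124.5 RPM of it. The rest lay in the 91.6 M library at up to 53.7 RPM, in the 109.1 M library at up to 79.97 RPM, or in both. The control mean was at least 2.97-fold above the heat limit. Without the 144.9 M library the others averaged at most 39.99 RPM with a listed 0 counted as 0, just under 2 times that limit. A library listed at 0 could hold up to about 20 RPM, so this average could also lie above 2 times the limit.

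miR-6853-5p, a name given in humans, had 21330 control reads and a mean of 50.8 RPM, and 0 reads at both heat times. Between 86.6% and 91.0% of its summed level lay in the 144.9 M library. With every library either at 0 or at 20 RPM and more, a single division remains, of 131.9 RPM in the 144.9 M library and 20.4 RPM in the 109.1 M library. The mean was at least 2.54-fold above the heat limit. The control libraries other than the deepest averaged at most 10.2 RPM with a listed 0 counted as 0. They could average more if a library listed at 0 held reads under the limit.

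miR-589-5p, another human name, had 5069 control reads and a mean of 16.7 RPM, and 0 reads at both heat times. Under the same condition its reads divide into 22.6 RPM in the 91.6 M library and 27.5 RPM in the 109.1 M library. Both values lie close to the limit of 20 RPM and the control mean lies below it, so no fold is given.

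**Figure D2:**
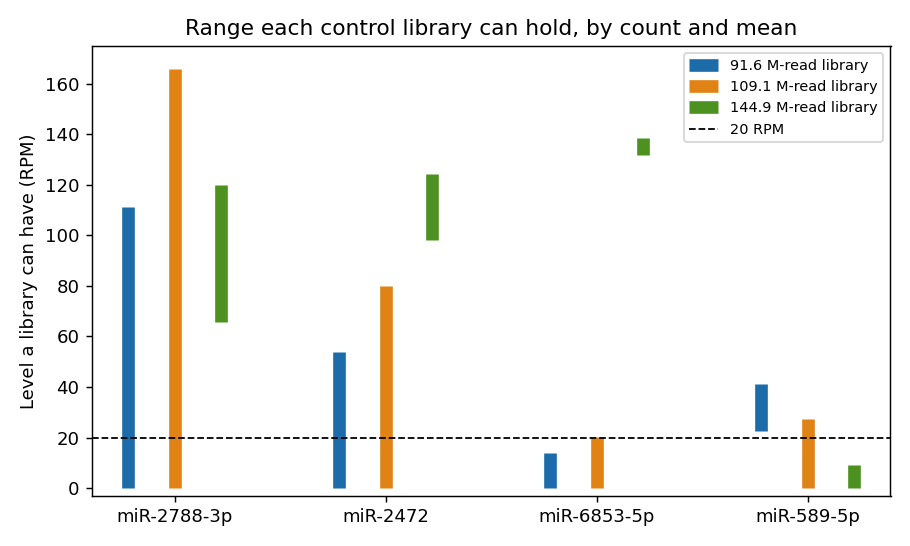
Range of levels (RPM, vertical axis) that the pooled count and the mean allow in each control library for the 4 members with reads in 2 or more control libraries; bars run from the lowest to the highest possible level and the dashed line marks 20 RPM. The 144.9 M library must exceed the line for miR-2788-3p, miR-2472 and miR-6853-5p, and cannot reach it for miR-589-5p, where it holds at most 9.03 RPM.

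The highest control level in the set belonged to miR-4653-5p, a human name. It had 345553 control reads, 38.2% of all control reads of the 71 members, and a mean of 1056 RPM. All of them came from the 109.1 M library, at 3169 RPM there, with the other 2 control libraries and the 6 heat libraries under the limit. The mean was at least 52.8-fold above the heat limit. The level in that 1 library alone sets this ratio.

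miR-9120 followed with 103640 control reads and a mean of 377 RPM, at least 18.9-fold above the limit, all of it in the 91.6 M library at 1132 RPM. miR-885, whose human 5p arm is known from liver and from p53-dependent growth arrest in neuroblastoma cells, had a mean of 108 RPM and stood at 324 RPM in the same library. miR-4940-5p, a Drosophila name, had a mean of 94.7 RPM and 284 RPM in that library. novel_mir_97, a miRNA the authors predicted themselves, had 92.4 RPM and 277 RPM in that library. These 4 names were thus high in the same 1 of 3 control libraries and under the limit in the other 2.

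Lower down, miR-6653-3p had a mean of 41.3 RPM and 124.03 RPM in the 91.6 M library. miR-518a-3p, of a primate gene cluster expressed in placenta, had 37.0 RPM and 111 RPM in that library. miR-1687-3p, a chicken name, had 34.03 RPM, from 102 RPM in the 144.9 M library. In the same deepest library miR-7108-3p stood at 95.3 RPM and miR-1247-3p at 85.8 RPM. miR-7930-3p and miR-6596-5p stood at 85.02 and 78.01 RPM in the 91.6 M library. From miR-518a-3p downwards no control mean reached 2 times the heat limit.

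**Figure D3:**
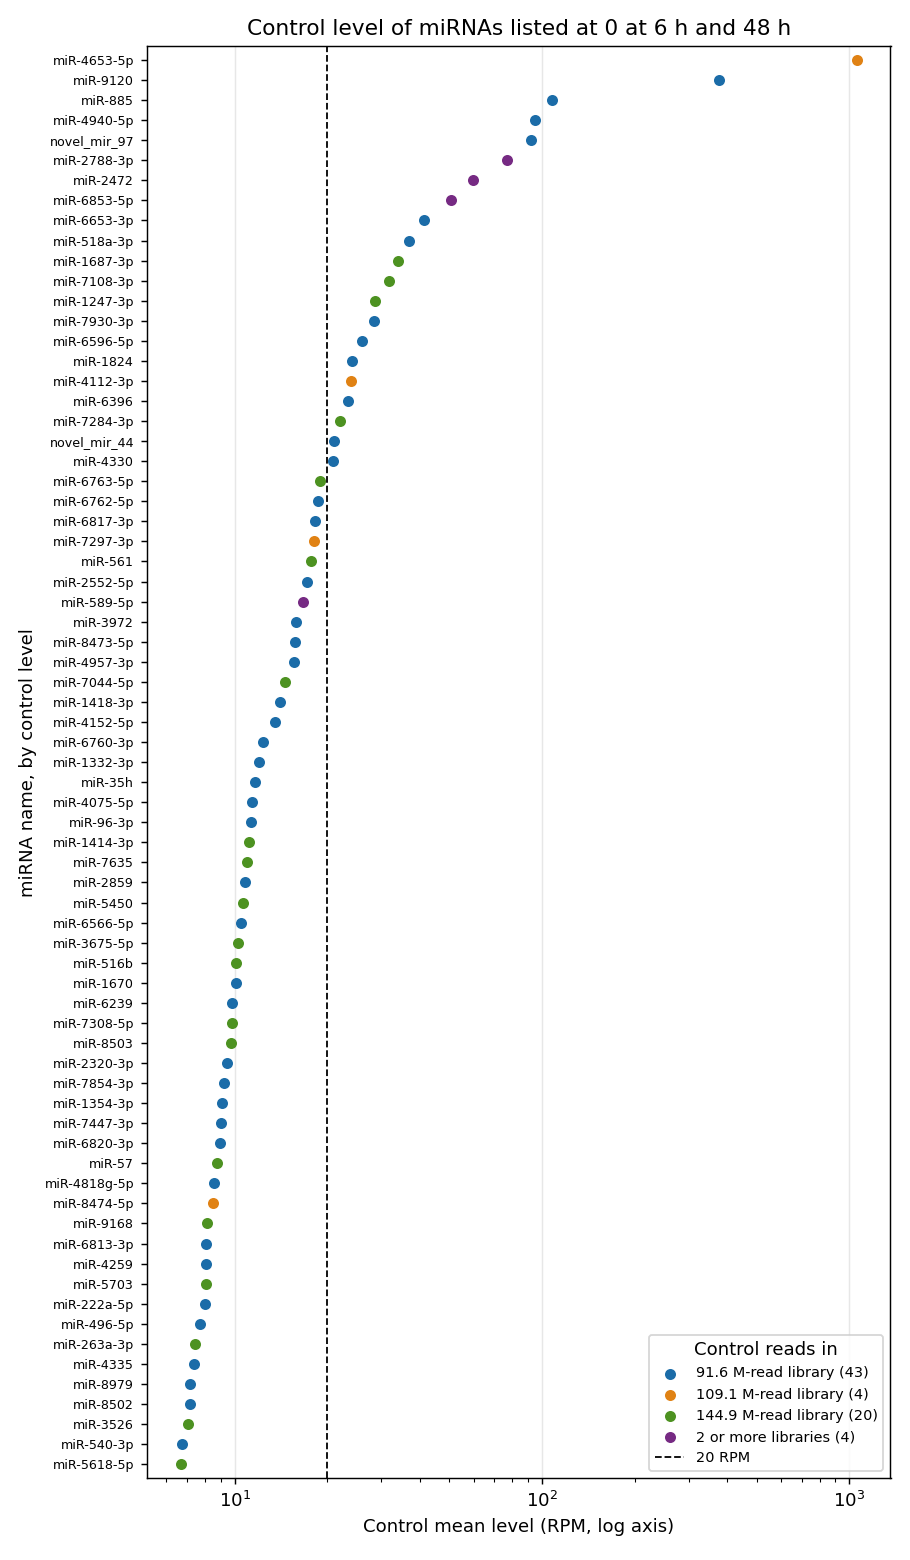
Control mean level (RPM, log axis) of each of the 71 members, ordered by level, coloured by the control library that holds the reads; the dashed line marks the 20 RPM that a heat group listed at 0 could still have. The means of 50 members lie left of the line, 21 lie right of it, and miR-4653-5p at the top, at 1056 RPM, is followed by miR-9120 with 377 RPM.

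Over all 71 members the control mean ran from 6.67 RPM for miR-5618-5p to 1056 RPM for miR-4653-5p, with a median of 12.04 RPM. The members together made up 0.262% of the control reads. The means of 50 members lay below 20 RPM, so the control and heat means of these names cannot be ordered at the listing limit. For 9 members the control mean was at least 2 times the highest heat mean possible: miR-4653-5p, miR-9120, miR-885, miR-4940-5p, novel_mir_97 and miR-6653-3p, each from 1 library, and miR-2788-3p, miR-2472 and miR-6853-5p from more. By the same bound 7.2% of the miRNAs tested at 6 h and 6.99% of those tested at 48 h were at least 2-fold lower. For the 6 from 1 library, leaving that library out puts the control under the same limit as the heat groups. With the library with the most left out and a control library listed at 0 counted as 0, at most 1 of the 9, miR-2788-3p, kept a ratio of 2. miR-2472 could also keep it if a control library listed at 0 held reads under the limit.

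The log2 ratios in the authors' deposited tables carry little beyond the control count. They ran from -18.75 to -11.21 at 6 h and from -18.83 to -11.28 at 48 h. Each equals, to within 0.0004, the log2 ratio of pooled counts divided by the library totals of their group, with 0.5 entered for the heat count of 0. The ratio at 48 h was lower than that at 6 h by the same 0.08 for every member, the difference of the library totals. Over all listed lower names, 119 at 6 h and 111 at 48 h, the median log2 ratio in the authors' deposited tables was -12.12 and -12.24. For the 71 members, which are part of both, it was -12.43 and -12.50. Both comparisons share the control libraries, so a member at 0 in each is not supported by a second set of control animals. At this depth counting error is small: the lowest control count of a member, 1850 reads for miR-540-3p, has an exact 95% Poisson interval of 1767 to 1936, which covers counting error only.

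The 67 names from 1 library were spread unevenly over the control libraries. The 91.6 M library, the shallowest, held 43 of them, the 144.9 M library 20 and the 109.1 M library 4. In the shallowest library their levels ran from 20.2 to 1132 RPM with a median of 36.1 RPM, and they took 0.372% of its reads. In the deepest they ran from 20.01 to 102 RPM with a median of 31.3 RPM and took 0.0859% of its reads. In the 109.1 M library miR-4653-5p alone made 95.4% of the summed 3320 RPM, and the others there were miR-4112-3p, miR-7297-3p and miR-8474-5p. The 60 other listed names with control reads in 1 library were divided with 37 in the shallowest, 8 in the middle and 15 in the deepest library. The share in the shallowest library was 64.2% for the members and 61.7% for those others. The number of names did not follow the depth of the library.

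Many members lay close to the listing limit in their own library. Of the 67 names, 24 stood between 20 and 30 RPM and 19 between 30 and 50 RPM in the 1 library that had them. A further 16 stood between 50 and 100 RPM, 5 between 100 and 300 RPM, and 3 above 300 RPM. The lowest library level was 20.01 RPM for miR-5618-5p, followed by 20.2 RPM for miR-540-3p. For these names a library just above the limit and libraries under it can differ by very little.

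The nearest names outside the rule had low heat levels, and their control reads lay in 1 library or in more. Among names listed as lower at both times, miR-25 had the lowest heat level that was not 0, 21.4 RPM in the 54.4 M library at 6 h, and 0 at 48 h, against a control mean of 65.04 RPM. miR-7560 had 0 at 6 h and 23.03 RPM in the 113 M library at 48 h, with 566 RPM in the 109.1 M control library. miR-234 had 44.4 RPM in 1 library at 6 h and 0 at 48 h, with 86.1 RPM in the 91.6 M control library. miR-8112 had a mean of 17.1 RPM at 6 h and 0 at 48 h, against a control mean of 47.7 RPM. let-7c-3p had 27.6 RPM in 1 library at 6 h and 26.3 RPM in 1 library at 48 h, against a control mean of 16.2 RPM. Unlike most members, miR-25, miR-8112 and let-7c-3p had control reads in 2 or more libraries. In all 5 but miR-8112 the heat reads lay in 1 library at each time that had any. Among the 5 names at 0 at both times that were left out by number, miR-84-5p had 6756 RPM in 2 or more control libraries. miR-33-2-3p, miR-133-5p, miR-279b-5p and let-7b-3p had control reads in 1 library each, at 303, 27.97, 21.4 and 20.2 RPM in it.

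Names that had control reads and also reads under heat are set beside the members as a description without a test. With the name filter of the rule applied to them too, there were 32 such names in both tables, and all control reads came from 1 library for 25 of them (78.1%), against 67 of the 71 members (94.4%). The share was 9 of 9 names at 0 at 6 h alone, 8 of 10 at 0 at 48 h alone, and 8 of 13 names with reads at both times. Their median control mean was 13.2 RPM, beside 12.04 RPM in the members. Without the name filter there were 57 such names, which include the abundant miR-10, miR-375 and let-7 names, and 31 of them (54.4%) had control reads in 1 library. Over all listed names, unfiltered, with control reads in 1 library, 90 of 117 were at 0 at 6 h and 87 of 112 at 48 h. With reads in 2 or more control libraries 9 of 49 and 9 of 57 were at 0. The mirror pattern was also common. Without the name filter, 23 of the 156 names in both tables had 0 in the control and reads at both heat times. By the same count 76 had 0 at both heat times. The reads of the 23 came from 1 library for 18 at 6 h, for 19 at 48 h, and at both times for 15. The 23 leave out names at 0 in the control that stood in 1 table only, such as miR-7297-5p. Of all 409 listed names, the 71 members and 131 others had control reads, and the rest were at 0 in the control. The 71 and the 23 thus do not give the relative size of these patterns in the series.

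**Figure D4:**
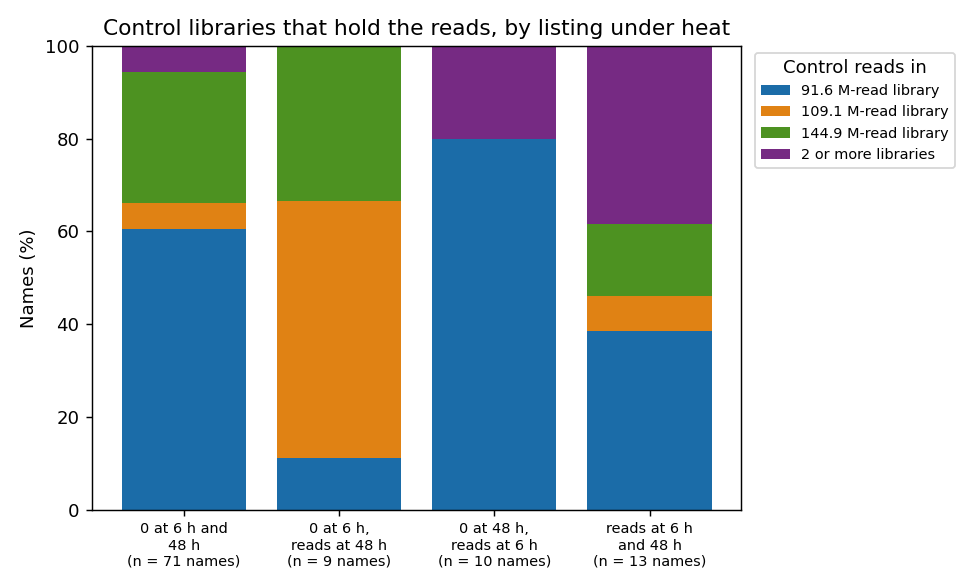
Share of names (%, vertical axis) by the control library that holds all of their reads, or 2 or more libraries, for the 71 members and for the 32 names in both tables, under the same name filter, with control reads and with reads at 48 h alone, at 6 h alone or at both times. The part in 2 or more libraries is 4 of 71 among the members and 5 of 13 among names with reads at both heat times.

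By name, 2 of the 71 members carry a number listed as shared across bilaterians and 1 a number listed as conserved in vertebrates. Among the 32 filtered names with control and heat reads these counts were 1 and 2. miR-96-3p carries a number shared across bilaterians, of the miR-183 cluster that acts in sensory hair cells of vertebrates. It had a control mean of 11.3 RPM from the 91.6 M library. miR-263a-3p is the partner arm of Drosophila miR-263a, which protects sensory bristle cells and is related to miR-183 and miR-96. It had 7.43 RPM, from 22.3 RPM in the 144.9 M library. Both names are of the arm that is usually the less abundant. The rule had left out several other families found across animals, so this is no account of conserved miRNAs at large. No member, and no listed name of the series, was named after any of 6 blood cell and immune miRNAs of vertebrates, miR-142, miR-144, miR-150, miR-155, miR-223 and miR-451.

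The only member on the list of vertebrate-conserved numbers was miR-222a-5p, the lesser arm of miR-222, a miRNA that lowers the cell cycle inhibitor p27 in mammals. It stood at 24.03 RPM in the 91.6 M control library, a mean of 8.01 RPM, and at 0 in both heat groups. That control mean lies under the heat limit, so no order between control and heat can be given for it. Among other names of this number, miR-222-3p was listed at 18.2 RPM in the control, 37.3 RPM at 6 h and 35.5 RPM at 48 h, with reads in 2 or more libraries of each group. Its log2 ratio in the authors' deposited tables was 1.17 at both times. miR-222, given without an arm, stood at 11.04 RPM in the control, from 1 library, and at 30.7 and 27.4 RPM under heat, from 2 or more libraries at each time. The control levels of all 3 names lay under 20 RPM on average.

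**Figure D5:**
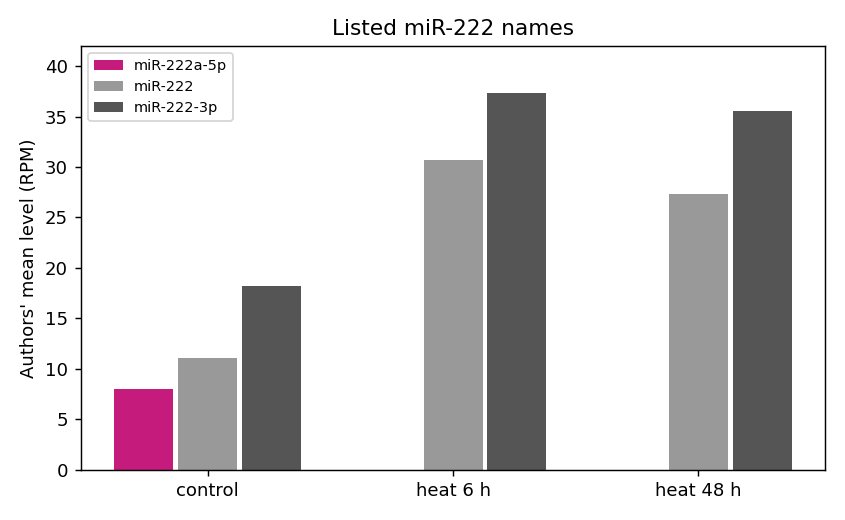
Authors' mean level (RPM, vertical axis, from 0) of the 3 listed miR-222 names in the control and after 6 h and 48 h in warm water; the means carry no SD. miR-222a-5p has 8.01 RPM in the control and no bar under heat, while miR-222-3p is at 37.3 and 35.5 RPM there.

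Of the 71 members, 4 had another listed name of their number outside the set. Besides miR-222a-5p these were miR-7297-3p, miR-1414-3p and miR-263a-3p. For miR-7297-3p and miR-1414-3p the other name was the opposite arm. miR-7297-5p was at 0 in the control, and at 48 h 1 library gave it a mean of 8.32 RPM. miR-1414-5p was likewise at 0 in the control and had a mean of 20.9 RPM at 48 h, from 1 library. For miR-263a-3p it was miR-263b, at 0 in the control and at a mean of 11.9 RPM at 48 h, again from 1 library. None of these 3 was listed at 6 h. Sharing of reads was looked for only between names of the same number, and no pair of members shared a number. Whether members of different numbers share reads was not tested.

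Other low-numbered names stood near the limit as well. miR-57, which in Caenorhabditis elegans acts in the posterior body with the Hox gene nob-1, had 8.73 RPM, and miR-35h, whose number is that of an embryonic family of the same worm, had 11.6 RPM. miR-516b, of the same placental cluster as miR-518a-3p, had 10.13 RPM. miR-496-5p and miR-540-3p, from the imprinted Dlk1-Dio3 region of mammals, had 7.72 and 6.73 RPM. miR-561 had 17.7 RPM. All of these had control reads in 1 library, miR-57, miR-516b and miR-561 in the 144.9 M library and the others in the 91.6 M library.

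Most members carried numbers of 1000 and above, given later in the naming of miRNAs. The rule had left out mostly low numbers. Numbers of 5000 and above made up 31 of the 71 (43.7%), and 13 of the 32 names with control and heat reads under the same filter (40.6%). The 31 had control means from 6.67 to 377 RPM with a median of 11.01 RPM, and all but miR-6853-5p had their reads in 1 library. Human names among them included miR-6853-5p, miR-7108-3p, miR-6763-5p, miR-6762-5p, miR-6817-3p, miR-6760-3p, miR-6820-3p and miR-6813-3p, grouped after their values were seen. After miR-6853-5p and miR-7108-3p they ran from 18.98 RPM for miR-6763-5p to 8.09 RPM for miR-6813-3p. The rest of this range, which may hold further human names, were miR-9120, miR-6653-3p, miR-7930-3p, miR-6596-5p, miR-6396, miR-7284-3p, miR-7297-3p, miR-8473-5p, miR-7044-5p, miR-7635, miR-5450, miR-6566-5p, miR-6239, miR-7308-5p, miR-8503, miR-7854-3p, miR-7447-3p, miR-8474-5p, miR-9168, miR-5703, miR-8979, miR-8502 and miR-5618-5p.

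Numbers from 3000 and below 5000 gave 13 members, beside 7 of the 32 filtered names with control and heat reads. The 13 ran from 7.06 RPM for miR-3526 to miR-4653-5p. miR-4112-3p, miR-4152-5p and miR-4075-5p, names given in the tunicate Ciona, had 23.9, 13.5 and 11.4 RPM. The 109.1 M library held the first and the 91.6 M library the other two. The rest were miR-4940-5p, miR-4330 at 20.9 RPM, miR-3972, miR-4957-3p, miR-3675-5p, miR-4818g-5p, miR-4259 and miR-4335. Numbers from 2000 and below 3000 gave 5 members, beside 4 of those 32 names. Of the 5, miR-2552-5p, miR-2859 and miR-2320-3p had 17.2, 10.8 and 9.48 RPM from the 91.6 M library. Numbers from 1000 and below 2000 gave 8 members, beside 1 of those 32 names. Each of the 8 came from 1 library: miR-1687-3p, miR-1247-3p, miR-1824 at 24.2 RPM, miR-1418-3p, miR-1332-3p, miR-1414-3p, miR-1670 and miR-1354-3p at 9.06 RPM. The second miRNA predicted by the authors, novel_mir_44, had 21.1 RPM from the 91.6 M library, like novel_mir_97.

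By arm, 20 members were named 5p, 25 were named 3p and 26 carried no arm. Reads from 1 control library were the rule in each, at 18 of 20, 24 of 25 and 25 of 26. Their median control means were 14.1, 14.1 and 10.7 RPM. Among the 32 filtered names with control and heat reads 7 were 5p, 8 were 3p and 17 had no arm, with 5, 5 and 15 from 1 library.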

How the data were processed

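Small RNA of 18 to 30 nt was sequenced on a HiSeq instrument from 3 libraries in each of 3 groups, per the labels' protocols. Not given in the sources used here: aligner, miRNA database, reference build and statistical test. The authors deposited 1 table for each heat time with a whole read count per group, pooled over 3 libraries. The deposited level has no unit in its header and is, on its values, a mean of RPM per library with 0.001 for a library at 0. The log2 ratio, the p-value and the q-value come from the authors, per the file headers. Tables list miRNAs beyond 2-fold, 275 of 403 tested at 6 h and 290 of 415 at 48 h, numbers tested being read from the ratios of q to p. The others are not analysed here.

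Python 3.11.15 was used. Library totals were the 3 densest values of count over summed RPM, and a name was assigned to a library where both matched within rounding. For other names all divisions of the reads that count and mean allow were computed. The assignment was tested on simulated data. The 20 RPM limit is inferred from the values. No test of replicates was possible, and the authors' q-values at 0.05 were used. Every member is named. Count, mean and possible library levels are given for those in 2 or more control libraries. For the 12 highest of the rest the library level is given. Number ranges and conserved-number lists group the others. The members and lists were chosen with earlier results of these data known.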

Additional observations from a re-analysis of the deposited data

How the results depend on the processing

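The number of members stayed within 1.5 times of 71 when predicted miRNAs or the name filter were left out, and when 0 at either time was enough. Counting names that share reads once left 71, but could not change it, as no members share a number. The count from 1 control library was unchanged under the alternatives run. The calls at a stricter q-value were also unchanged, but could not have changed, as every member's q-value lies far below both thresholds. Without 1 control library (added after seeing the data), 28 to 67 of the 71 kept control reads, the lowest without the 91.6 M library. The median control level was 12.5 RPM by pooled counts. The bound for miR-4653-5p was 158-fold with the limit reached in 1 heat library, and 77640-fold at 6 h and 81818-fold at 48 h with a limit of 3 pooled counts. A limit of 3 counts lies far below the smallest listed level from 1 library, 20.01 RPM. Values with the 3-count limit, here and in the next sentence, are thus not bounds for these data. The number at least 2-fold lower, 9, was 71 with the 3-count limit and 21 with a limit of 10 RPM. It was 3 among names in 2 or more control libraries (added after seeing the data). Without the control library with the most it was at most 1, with a control library listed at 0 counted as 0. Members with another name of the same number and letter were 2, not 4. Among names with control and heat reads the share from 1 control library was 54.4% and, with the name filter of the rule (added after seeing the data), 78.1%. No paired analysis was possible because the columns hold 1 pooled value per group. The pooled columns limit what can be said of single animals.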
